A study of Mus musculus with 16 samples.

Results

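The Notch pathway was followed through 10 genes of mouse jejunal enteroids: the receptors Notch1, Notch2 and Notch3, the ligands Jag1, Jag2, Dll1 and Dll4, the coactivator Maml2, and the target genes Hes1 and Hey1. They were taken by gene name from a table of 54532 genes, and each name matched 1 row in each of the 16 RNA-sequencing libraries. Enteroids are epithelial cultures grown from crypts, here of the jejunum of adult mice, and these were harvested after culture in differentiation medium. There were 4 groups of 4 libraries. The mice behind MYO5BΔIEC enteroids were Vil-CreERT2;Myo5b-flox/flox, and those behind MYO5B(G519R) enteroids were Vil-CreERT2;Myo5b-flox/G519R, which carry a point mutation of MYO5B on the allele that Cre leaves intact, and both were exposed to 1 µM 4-OH-tamoxifen for 24 hours so that the villin-driven Cre, which acts in the intestinal epithelium, would recombine. MYO5BΔIEC enteroids were then given vehicle (PBS) or Compound-1, an agonist that prefers the lysophosphatidic acid receptor LPAR5, at 100 nM for 2 days. The labels give no treatment for the control and MYO5B(G519R) groups, so a comparison of MYO5BΔIEC with either also sets vehicle against none. The methods describe the control group as flox/flox cultures given ethanol in place of tamoxifen and a legend as healthy littermates, so an effect of tamoxifen or of Cre itself cannot be told apart from that of MYO5B in any comparison with it. Cultures of a group were from separate mice according to a legend, the labels do not say so, and p-values therefore measure the spread between these samples.

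Notch receptors are single-pass membrane proteins that are switched on by Jagged or Delta-like ligands on a neighbouring cell. Ligand endocytosis pulls the receptor open, ADAM proteases and γ-secretase cut it, and its freed intracellular domain joins RBPJ and a Mastermind-like coactivator to turn on genes of the Hes and Hey families. In the intestinal crypt this circuit keeps stem cells and steers progenitors to the absorptive lineage, with HES1 repressing Atoh1, the factor that starts the secretory lineage.

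The libraries held 27804968 to 40101729 counts, so 3 counts correspond to between 0.0737 and 0.111 CPM (counts relative to library size, scaled by TMM over all libraries). Markers of the epithelium summed to 8211 CPM or more in every library, whereas 8 fibroblast markers summed to at most 12.9 CPM, 8 endothelial markers to at most 9.83 CPM and 8 immune markers to at most 10.5 CPM. Control replicate 1 stood apart from the other controls. Between gene lengths of 1000 and 8000 bp, control replicates 2 to 4 lost 0.59 to 0.67 on the log2 scale relative to the mean of all libraries. Control replicate 1 gained 0.17, and the other 12 libraries lay between -0.06 and 0.22. Its mitochondrial share was the lowest of the controls (6.41% against 9.07% to 10.4%), while the other 12 libraries had 3.79% to 6.63%. In both measures control replicate 1 thus lay among these 12, and control replicates 2 to 4 differed from all the rest. Differences between the groups cannot be told apart from this one. For the members that passed in the MYO5B models, values are therefore given also without control replicate 1, which leaves only those controls, and with the length trend removed. Over the whole gene, Myo5b had a log2 fold change of -0.55 in MYO5BΔIEC (edgeR adjusted p = 0.0503) and of -0.33 in MYO5B(G519R) enteroids (edgeR adjusted p = 0.109), relative to control; these counts do not single out the deleted part.

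The receptors Notch1, Notch2 and Notch3, the ligand Jag1 and the coactivator Maml2 were higher in both MYO5B models than in control, while the Delta-like ligands and the target gene Hes1 did not pass the test. This split ran with gene length: the 5 that rose have 5827 to 14232 bp, and Dll1, Dll4 and Hes1 have 2037 to 4219 bp. Log2 fold changes over all tested genes also rose with length (Spearman correlation 0.29 in both models). With the length trend removed, the same 5 members were still called in both. Of the 10 members, 9 reached 10 counts in 2 or more of the 8 libraries of a comparison and were tested, and Hey1 was not. In MYO5BΔIEC enteroids 5 were called higher and 0 lower by edgeR at an adjusted p under 0.05, in a comparison that called 13.5% of all tested genes higher and 13.8% lower. In MYO5B(G519R) enteroids the count was again 5 higher and 0 lower, against 13.1% and 13.7% of all tested genes. The 4 libraries of the model lay wholly above the 4 controls for 5 members in each comparison, where 13.0% (MYO5BΔIEC) and 13.6% (MYO5B(G519R)) of tested genes did so. The median log2 fold change of the tested members was 1.04 in MYO5BΔIEC and 0.97 in MYO5B(G519R) enteroids, and that of all tested genes was -0.01 and -0.05. Several of these genes were picked out by the study from these same samples, so the counts are not independent evidence of direction, and the comparisons share their control libraries. In bulk RNA, more cells of a type cannot be told apart from more RNA per cell.

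**Figure D1:**
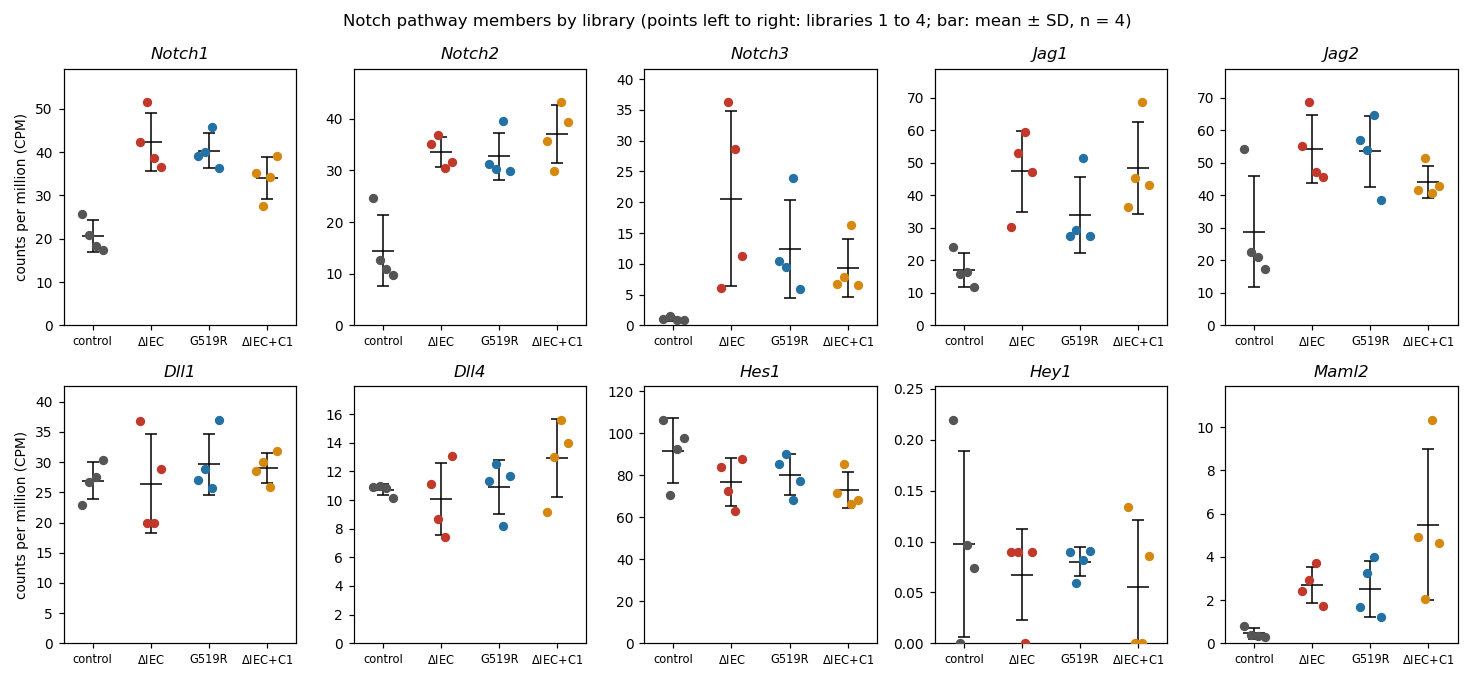
CPM (linear axis from 0) of the 10 members in each library of the 4 groups (ΔIEC, MYO5BΔIEC with vehicle; ΔIEC+C1, with Compound-1); points are libraries 1 to 4 from left to right and bars the mean ± SD (n = 4). Notch1, Notch2, Notch3, Jag1 and Maml2 lie above the controls in every library of the other groups, whereas Dll1, Dll4 and Hes1 overlap with them.

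Notch1 (ENSMUSG00000026923, GRCm38 chromosome 2, 26457903 to 26516663) encodes the receptor best known for maintaining intestinal stem cells. It was at 25.7, 20.8, 18.4 and 17.5 CPM in control replicates 1 to 4 and at 42.4, 51.6, 38.6 and 36.5 CPM in MYO5BΔIEC. MYO5B(G519R) enteroids had 39.2, 40.0, 45.9 and 36.4 CPM. The lowest library of either model was above the highest control. The change was 1.04 ± 0.17 (log2, SE; edgeR adjusted p = 0.00258), or 2.06-fold, in MYO5BΔIEC and 0.97 ± 0.15 (edgeR adjusted p = 0.00266), or 1.96-fold, in MYO5B(G519R). Its transcript model of 14232 bp is the longest of the members, and with the length trend removed the log2 fold changes were 0.73 and 0.72, both still past the threshold (edgeR adjusted p = 0.00528 and 0.00147). Without control replicate 1 they were 1.17 and 1.13.

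Notch2 (ENSMUSG00000027878, chromosome 3, 98013527 to 98150361), which encodes another receptor of the crypt, showed a wider spread among controls, at 24.6, 12.7, 11.0 and 9.67 CPM. MYO5BΔIEC enteroids had 35.1, 37.0, 30.6 and 31.7 CPM and MYO5B(G519R) enteroids 31.2, 30.4, 39.5 and 29.8 CPM. Control replicate 1 was the highest control and still below every library of both models. The log2 fold changes were 1.22 ± 0.27 (edgeR adjusted p = 0.00832) and 1.17 ± 0.28 (edgeR adjusted p = 0.0127); without control replicate 1 they were 1.60 and 1.59, and with the length trend removed 0.99 and 1.00.

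Notch3, at ENSMUSG00000038146 on chromosome 17 (32120820 to 32166880), encodes a receptor best known from the mural cells of blood vessels. Of the 9 tested members it had the largest change in both models. The controls had 0.972, 1.50, 0.865 and 0.815 CPM, from 22 to 45 counts a library. In MYO5BΔIEC the values were 6.08, 36.3, 28.6 and 11.3 CPM, and in MYO5B(G519R) 10.4, 9.44, 23.9 and 5.85 CPM. No library of either model overlapped with a control, yet the values within a model spread over several-fold, far more than those of Notch1 or Notch2. The log2 fold change was 4.31 ± 0.55 (edgeR adjusted p = 0.00144), or 19.8-fold, in MYO5BΔIEC and 3.57 ± 0.45 (edgeR adjusted p = 0.00192), or 11.9-fold, in MYO5B(G519R). Length trend removal left them at 4.09 and 3.38, and leaving out control replicate 1 at 4.28 and 3.57. On the log2(FPKM + 1) scale, which understates changes of low genes, limma gave 1.51 and 1.10, and on log2(FPKM + 0.1) 3.27 and 2.70, all past the threshold.

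Because Notch3 marks mural cells, 8 markers of pericytes and smooth muscle were read beside it. Their summed level was 0.741 to 1.94 CPM in control, 3.12 to 12.1 CPM in MYO5BΔIEC and 2.44 to 8.65 CPM in MYO5B(G519R) enteroids. The sum was thus higher in both models, as Notch3 was, but the 8 markers did not rise together. Rgs5, a regulator of G protein signaling in pericytes, had the highest mean of the 8 in MYO5BΔIEC, at 0.539, 3.27, 6.34 and 4.29 CPM against at most 0.0941 CPM in control, and the channel subunits Kcnj8 and Abcc9 reached 2.52 and 2.55 CPM. The contractile markers did not follow: Acta2 was at most 0.147 CPM and Myh11 at most 0.240 CPM in any library. Pdgfrb, the pericyte growth factor receptor, was at 0.565 to 0.941 CPM in control and 0.690 to 1.03 CPM in MYO5BΔIEC, and Des was at 0 in every control library. The part of these transcripts in the Notch3 difference was not tested.

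The promoters of the receptors, which rose together, are shown with that of Jag1, the ligand that rose with them, and that of Hes5, a Hes family target, for contrast. Each covers 250 bases before to 50 bases after the start in RefSeq (GRCm38.p6), written along the gene's strand from 5′ to 3′. Capitals mark the GC box GGGCGG and the core RBPJ motif GTGGGAA, each searched on both strands, with no overlap between them in these sequences; the intervals are chr2:26503773-26504072 (minus strand) for Notch1, chr3:98013288-98013587 (plus) for Notch2, chr17:32166841-32167140 (minus) for Notch3, chr2:137116471-137116770 (minus) for Jag1 and chr4:154960673-154960972 (plus) for Hes5.
Notch1: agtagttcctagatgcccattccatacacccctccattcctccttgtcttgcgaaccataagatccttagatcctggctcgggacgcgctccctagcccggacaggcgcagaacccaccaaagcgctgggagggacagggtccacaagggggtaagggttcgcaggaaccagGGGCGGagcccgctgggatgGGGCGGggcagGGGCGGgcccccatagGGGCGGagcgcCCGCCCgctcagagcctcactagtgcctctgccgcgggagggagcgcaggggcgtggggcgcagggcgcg
Notch2: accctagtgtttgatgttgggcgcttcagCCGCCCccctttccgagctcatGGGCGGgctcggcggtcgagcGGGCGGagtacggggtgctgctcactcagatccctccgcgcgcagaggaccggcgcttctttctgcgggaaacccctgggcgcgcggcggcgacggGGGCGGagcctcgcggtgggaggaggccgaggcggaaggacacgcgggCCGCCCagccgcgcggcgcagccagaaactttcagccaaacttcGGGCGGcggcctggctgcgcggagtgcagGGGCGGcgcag
Notch3: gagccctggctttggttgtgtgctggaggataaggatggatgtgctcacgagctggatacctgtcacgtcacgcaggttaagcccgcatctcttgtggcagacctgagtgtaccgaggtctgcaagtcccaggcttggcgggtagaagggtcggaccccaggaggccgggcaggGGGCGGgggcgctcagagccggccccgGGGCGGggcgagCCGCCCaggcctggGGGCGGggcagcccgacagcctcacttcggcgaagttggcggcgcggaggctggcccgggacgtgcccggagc
Jag1: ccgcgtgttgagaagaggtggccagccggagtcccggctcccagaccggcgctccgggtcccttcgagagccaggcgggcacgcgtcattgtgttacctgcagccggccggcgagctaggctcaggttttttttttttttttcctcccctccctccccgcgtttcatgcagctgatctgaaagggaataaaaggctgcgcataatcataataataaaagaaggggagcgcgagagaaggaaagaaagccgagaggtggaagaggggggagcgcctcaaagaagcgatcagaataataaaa
Hes5: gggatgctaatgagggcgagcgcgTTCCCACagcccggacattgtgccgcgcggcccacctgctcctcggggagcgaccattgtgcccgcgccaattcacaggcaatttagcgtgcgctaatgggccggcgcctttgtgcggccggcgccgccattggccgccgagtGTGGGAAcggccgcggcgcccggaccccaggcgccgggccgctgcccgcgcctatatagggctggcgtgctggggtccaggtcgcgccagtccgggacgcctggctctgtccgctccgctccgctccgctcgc
The table held a promoter for 8 of the 10 members, and not for Hes1 or Hey1. GC boxes numbered 5 in the Notch1 window, 7 in Notch2 and 4 in Notch3, and the GC content was 68.3%, 73.0% and 70.0%, against a median of 52.7% over all 32851 promoters. Jag2, with 86% GC, had 5 of them and Dll4, with 63.7% GC, had 2, while Jag1, with 55.7% GC, Dll1 and Maml2 had 0. At least 1 was thus found in 5 of the 8 members, beside 38.2% of all 27025 genes with a promoter. The RBPJ motif was in the window of 0 of the 8 members, beside 7.25% of all genes with a promoter, and at 2 places in Hes5. Among the other targets with a promoter, it was at 2 places in Hey2 and at 1 in Hes7, and Nrarp and Olfm4 had 0. These matches describe the letters and are not binding sites.

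Per transcript length (FPKM), which allows levels to be compared between genes, Notch1 and Notch2 made up most of the receptor mRNA of control enteroids. The summed FPKM of Notch1, Notch2, Notch3 and Notch4 averaged 3.25 ± 0.847 (SD, n = 4) over the controls, 9.04 ± 2.37 over the MYO5BΔIEC libraries and 7.89 ± 1.71 over those of MYO5B(G519R). Notch3 contributed 2.66%, 5.79%, 3.80% and 3.65% of it in the controls. Its share was 10.03%, 37.3%, 37.7% and 19.5% in the MYO5BΔIEC libraries, and the MYO5B(G519R) libraries had 17.3%, 16.3%, 28.5% and 11.0%. Every model library thus had a larger Notch3 share than every control, by a mean of 22.2 and 14.3 percentage points (exact permutation test, two-sided, p = 0.0286 for each, the smallest that 4 against 4 allows, and 0.0857 after Benjamini-Hochberg adjustment over 6 tests of shares). Notch4, an endothelial receptor, was at 2.63 to 4.41 CPM in control and 2.31 to 4.46 CPM in MYO5BΔIEC.

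**Figure D2:**
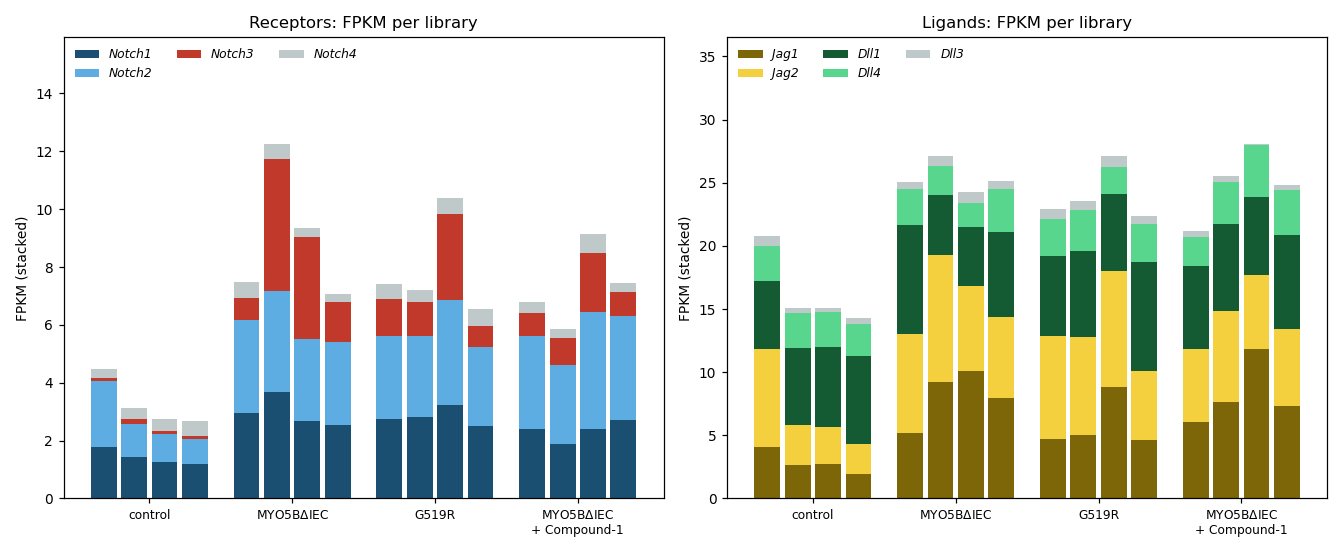
FPKM of the Notch receptors (left) and of the Jagged and Delta-like ligands (right), stacked for each of the 16 libraries, libraries 1 to 4 from left to right within a group; both axes start at 0. Notch3 is a thin band in the controls (2.66% to 5.79% of receptor FPKM) and 10.03% to 37.7% in MYO5BΔIEC, and the Jagged bands are taller in both models than in control replicates 2 to 4.

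Among the ligands, Jag1 rose and the Delta-like genes did not pass the test. Jag1 (ENSMUSG00000027276, chromosome 2, 137081456 to 137116644), a Jagged ligand, was at 24.1, 15.9, 16.3 and 11.7 CPM in control. MYO5BΔIEC enteroids had 30.3, 53.1, 59.4 and 47.1 CPM and MYO5B(G519R) enteroids 27.5, 29.2, 51.4 and 27.5 CPM. All lay above the controls, although replicate 1 of MYO5BΔIEC and 3 of the MYO5B(G519R) libraries were close to control replicate 1. The log2 fold change was 1.49 ± 0.25 (edgeR adjusted p = 0.00293) in MYO5BΔIEC and 1.00 ± 0.27 (edgeR adjusted p = 0.0215) in MYO5B(G519R). Jag1 was at 1.70 and 1.24 without control replicate 1, and at 1.36 and 0.89 with the length trend removed. The call in MYO5B(G519R) was marginal and was lost in 4 of the 8 fits with 1 library left out. Jag1 was at 0.72 without MYO5B(G519R) replicate 3 (edgeR adjusted p = 0.0532), 0.96 without control replicate 2 (0.0582), 0.97 without control replicate 3 (0.0601) and 0.85 without control replicate 4 (0.0587).

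Jag2 (ENSMUSG00000002799, chromosome 12, 112907819 to 112929776), the other Jagged ligand, was called or not depending on control replicate 1 and on the setting. The controls had 54.2, 22.6, 21.0 and 17.5 CPM, MYO5BΔIEC enteroids 55.1, 68.6, 47.2 and 45.7 CPM, and MYO5B(G519R) enteroids 57.0, 54.0, 64.6 and 38.6 CPM. Control replicates 2 to 4 were below every model library, and control replicate 1 lay among them. With all libraries the log2 fold change was 0.92 (95% confidence interval 0.20 to 1.64, edgeR adjusted p = 0.0581) in MYO5BΔIEC and 0.89 (0.14 to 1.64, edgeR adjusted p = 0.0752) in MYO5B(G519R). Without control replicate 1, Jag2 passed in both, at 1.42 (edgeR adjusted p = 0.000133) and 1.43 (0.000145). That fit keeps only the controls with the length trend, and Jag2 has a length of 6965 bp. With the length trend removed and all libraries kept, Jag2 was at 0.79 in both models and was not called. DESeq2 called it with all libraries too, at adjusted p = 0.0209 and 0.0235.

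Dll1 (ENSMUSG00000014773, chromosome 17, 15367354 to 15376872), a Delta-like ligand of secretory progenitors, was at 22.9, 26.7, 27.6 and 30.4 CPM in control, 36.9, 19.9, 19.9 and 28.9 CPM in MYO5BΔIEC and 27.0, 28.9, 25.8 and 37.0 CPM in MYO5B(G519R). Dll4, at ENSMUSG00000027314 on chromosome 2 (119325784 to 119335962), was at 10.9, 11.0, 10.9 and 10.2 CPM, then 11.1, 8.69, 7.40 and 13.1 CPM, and 11.3, 12.5, 8.16 and 11.7 CPM in the same order of groups. For both genes the groups overlapped throughout. The 95% confidence intervals of the log2 fold change were -0.49 to 0.45 and -0.18 to 0.47 for Dll1, and -0.52 to 0.35 and -0.33 to 0.37 for Dll4, in MYO5BΔIEC and MYO5B(G519R) respectively, which leaves room for changes of that size but not for one as large as the estimate for Jag1. MYO5BΔIEC replicates 2 and 3, the highest in Notch3, were the lowest of their group in Dll1 and Dll4. Genes overlapping on the opposite strand held up to 83 counts (A930024N18Rik, at Dll1) and up to 176 counts (Gm14207, at Dll4), and the strand setting of the counting is not given in the sources used here.

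The balance of ligand mRNA was read per length as the share of Dll1 and Dll4 in the FPKM of Jag1, Jag2, Dll1, Dll3 and Dll4. It was 39.3%, 59.0%, 60.3% and 66.1% in control, 46.0%, 26.1%, 27.2% and 40.0% in MYO5BΔIEC, and the MYO5B(G519R) libraries had 40.6%, 42.8%, 30.3% and 51.9%. The Delta-like share averaged 56.2% in control and was lower by 21.4 and 14.8 percentage points in the models, differences that did not pass (exact permutation test, two-sided, p = 0.0857 and 0.114; adjusted over 6 tests, 0.171 for both). Control replicate 1 again lay among the model libraries. Without it the MYO5BΔIEC share was lower than control by 27.0 percentage points (difference -27.0, exact permutation test, two-sided, p = 0.0571, the smallest that 3 against 4 allows). That comparison keeps only the controls with the length trend, which FPKM does not remove. Dll1 and Dll4 (4219 and 3852 bp) are shorter than Jag1 and Jag2 (5827 and 6965 bp). The part of the length trend in this share was not tested. The summed ligand FPKM was 16.3 ± 3.01 (SD, n = 4) over the controls, against 25.4 ± 1.22 for MYO5BΔIEC and 24.0 ± 2.12 for MYO5B(G519R).

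Maml2 (ENSMUSG00000031925, chromosome 9, 13297957 to 13709388), a Mastermind-like coactivator of the nuclear Notch complex, rose from a low level. It had 26, 12, 10 and 8 counts in the controls, which is 0.815, 0.399, 0.320 and 0.296 CPM. The levels were 2.40, 2.91, 3.72 and 1.74 CPM in MYO5BΔIEC and 1.67, 3.26, 3.97 and 1.21 CPM in MYO5B(G519R), all above the controls. The log2 fold changes were 2.54 ± 0.41 (edgeR adjusted p = 0.00242), or 5.83-fold, and 2.45 ± 0.48 (edgeR adjusted p = 0.00643), or 5.46-fold. Without control replicate 1 they were 2.98 and 2.92, and with the length trend removed 2.41 and 2.33. At this low level limma on log2(FPKM + 1) gave 0.39 and 0.36, and on log2(FPKM + 0.1) 1.58 and 1.45, all past the threshold. The gene holds several short overlapping annotations with up to 15 counts each.

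The target genes did not pass the test in either direction, and the estimates for Hes1 lay below 0. Hes1 (ENSMUSG00000022528, chromosome 16, 30064384 to 30067796), the repressor that Notch turns on in crypt progenitors, had the highest FPKM of the members, 43.9 ± 7.62 (SD, n = 4) in control. It was at 106, 70.5, 92.6 and 97.9 CPM in control, 84.2, 72.5, 63.0 and 87.6 CPM in MYO5BΔIEC and 85.6, 90.01, 68.02 and 77.5 CPM in MYO5B(G519R). The groups overlapped, and control replicate 2 was below most model libraries. Its log2 fold change was -0.25 (95% confidence interval -0.61 to 0.11, edgeR adjusted p = 0.282) in MYO5BΔIEC and -0.19 (-0.52 to 0.13, edgeR adjusted p = 0.359) in MYO5B(G519R). The upper ends of these intervals leave out a rise of the size estimated for Notch1. At 2037 bp Hes1 is the shortest member, so its negative sign also runs with the length trend of control replicates 2 to 4. Over the 11 other settings, which include removal of that trend, the Hes1 estimates were -0.26 to -0.14 in MYO5BΔIEC. In MYO5B(G519R) they were -0.20 to -0.08, and none passed in either model. Hey1, at ENSMUSG00000040289 on chromosome 3 (8663359 to 8667256), another repressor of this class, had 7, 0, 3 and 2 counts in the controls and at most 3 counts in any MYO5BΔIEC or MYO5B(G519R) library. It was at 3 counts or fewer in 14 of the 16 libraries, and a difference was not detectable at this depth.

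**Figure D3:**
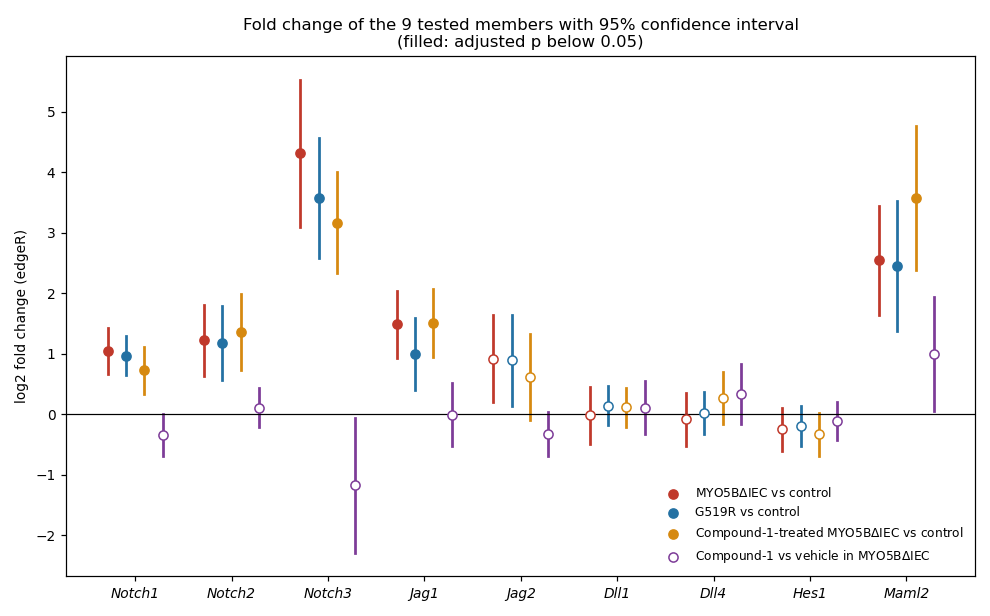
log2 fold change (edgeR) of the 9 tested members in 4 comparisons, with 95% confidence intervals as lines; filled points have an adjusted p below 0.05. Notch3 reaches 4.31 in MYO5BΔIEC against control, Hes1, Dll1 and Dll4 have intervals that include 0 in each comparison shown, and no point of Compound-1 against vehicle is filled.

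A further 8 genes of the Hes, Hey and crypt response group were read as targets. Hes3, Hey2 and Heyl had too few counts to test in either model. Nrarp, a feedback inhibitor induced by Notch, had log2 fold changes of 0.22 and 0.22 (edgeR adjusted p = 0.391 and 0.358). Hes2, Hes5 and Hes7 were all at or below 2.55 CPM and did not pass, with wide intervals such as -1.77 to 1.50 for Hes5 in MYO5BΔIEC. Olfm4, a crypt stem cell gene that responds to Notch, was the exception and fell, from 1570, 3749, 3946 and 5712 CPM in control to 1293, 397, 318 and 1099.7 CPM in MYO5BΔIEC and 1283, 1191, 573 and 1801 CPM in MYO5B(G519R). The log2 fold changes of Olfm4 were -2.26 ± 0.51 (edgeR adjusted p = 0.00896) and -1.63 ± 0.41 (edgeR adjusted p = 0.0174). Control replicate 1 was the lowest control and overlapped with MYO5B(G519R), where the call was lost without control replicate 4 (-1.35, edgeR adjusted p = 0.0508) or without MYO5B(G519R) replicate 2 (-1.62, 0.0511). Of the 5 tested targets, 0 were called higher and 1 lower in each model, near the background, where 13.5% and 13.1% of all tested genes were higher and 13.8% and 13.7% lower.

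Of 57 other Notch pathway genes, 53 were tested. In MYO5BΔIEC enteroids 9 were called higher and 5 lower, and in MYO5B(G519R) enteroids 10 and 5. These are 17.0% and 18.9% of the tested list higher, beside the 13.5% and 13.1% of all genes given above, and 9.43% lower beside 13.8% and 13.7%, so the counts of the list were near the background. The median log2 fold change over the list was 0.22 in both models, 0.14 and 0.18 with the length trend removed and 0.35 and 0.33 without control replicate 1. Control replicate 1 weighed on these counts, as without it 25 and 26 genes were called in place of 14 and 15. Without MYO5B(G519R) replicate 2 the second count was 9.

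By role, the nuclear partners split. Spen, a corepressor that binds RBPJ, rose by 1.08 and 1.13, and Ep300, the histone acetyltransferase recruited by Mastermind, by 0.93 and 0.74 (edgeR adjusted p = 0.00714 and 0.0244). Cir1, a corepressor, fell by 0.82 and 0.74, and Snw1, a coregulator and splicing factor, fell by 0.58 and 0.59 (edgeR adjusted p = 0.0153 and 0.00552). Rbpj itself, the DNA-binding partner, was at 36.9 to 51.1 CPM in control and 35.3 to 43.4 CPM in MYO5BΔIEC and did not pass (-0.10 and -0.08), although with the length trend removed Rbpj was called lower in MYO5BΔIEC (-0.40, edgeR adjusted p = 0.0355) and not in MYO5B(G519R) (-0.31, 0.0567). Of the 9 nuclear genes, 3 and 4 were called higher (33.3% and 44.4%) and 2 lower in each (22.2%). Over all tested genes 13.5% and 13.1% were called higher, and 13.8% and 13.7% lower. Ep300 did not hold in MYO5B(G519R) without any 1 of control replicates 2 to 4 or MYO5B(G519R) replicates 1 to 3 (edgeR adjusted p = 0.0546 to 0.0743), and Snw1 did not in MYO5BΔIEC without control replicate 3 or 4 or MYO5BΔIEC replicate 2 (0.0507 to 0.0553).

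Among genes that act on ligand or receptor, 1 of 4 in ligand endocytosis was called higher (25%), beside 13.5% and 13.1% of all tested genes. It was Neurl1b, a ubiquitin ligase for Notch ligands, at 15.5 to 22.5 CPM in control and 29.3 to 50.4 CPM in MYO5BΔIEC. Its log2 fold changes were 1.28 and 1.03 (edgeR adjusted p = 0.00242 and 0.00441). Rfng, a Fringe glycosyltransferase that modifies the receptor, rose by 0.71 and 0.74, the 1 call among the 5 glycosylation genes (20%) in the edgeR fit as reported. Under other settings, Poglut1 was called in MYO5B(G519R) with the length trend removed and Pofut1 without control replicate 1. Lfng was called in MYO5BΔIEC without MYO5BΔIEC replicate 1. Furin, the convertase that cuts the receptor precursor, rose by 1.14 in both models, while Psenen, the smallest γ-secretase subunit, fell by 0.73 and 0.79. Psenen was at 90.1 to 107 CPM in control and 47.8 to 65.5 CPM in MYO5BΔIEC, with no overlap. In receptor turnover Dtx3, a Deltex ubiquitin ligase, rose by 1.08 and 0.85 and Fbxw7, which marks the intracellular domain for degradation, by 0.44 and 0.51. The weakest of these calls were marginal and were lost without any 1 of several libraries. Fbxw7 was lost in MYO5BΔIEC without control replicate 2, 3 or 4 or MYO5BΔIEC replicate 1, 2 or 3 (edgeR adjusted p = 0.0553 to 0.109), and Dtx3 in MYO5B(G519R) without control replicate 2, 3 or 4 or MYO5B(G519R) replicate 1, 2 or 3 (0.0843 to 0.102). With all libraries, Fbxw7 was also lost in MYO5BΔIEC with the length trend removed (0.26, edgeR adjusted p = 0.172), no filter (0.118), the replicate number as a block (0.0979) and limma on log2(FPKM + 0.1) (0.0586). With the length trend removed, Neurl1b, Rfng, Furin, Psenen and Dtx3 were still called in both models, Psenen at -0.45 in MYO5BΔIEC (edgeR adjusted p = 0.0474).

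**Figure D4:**
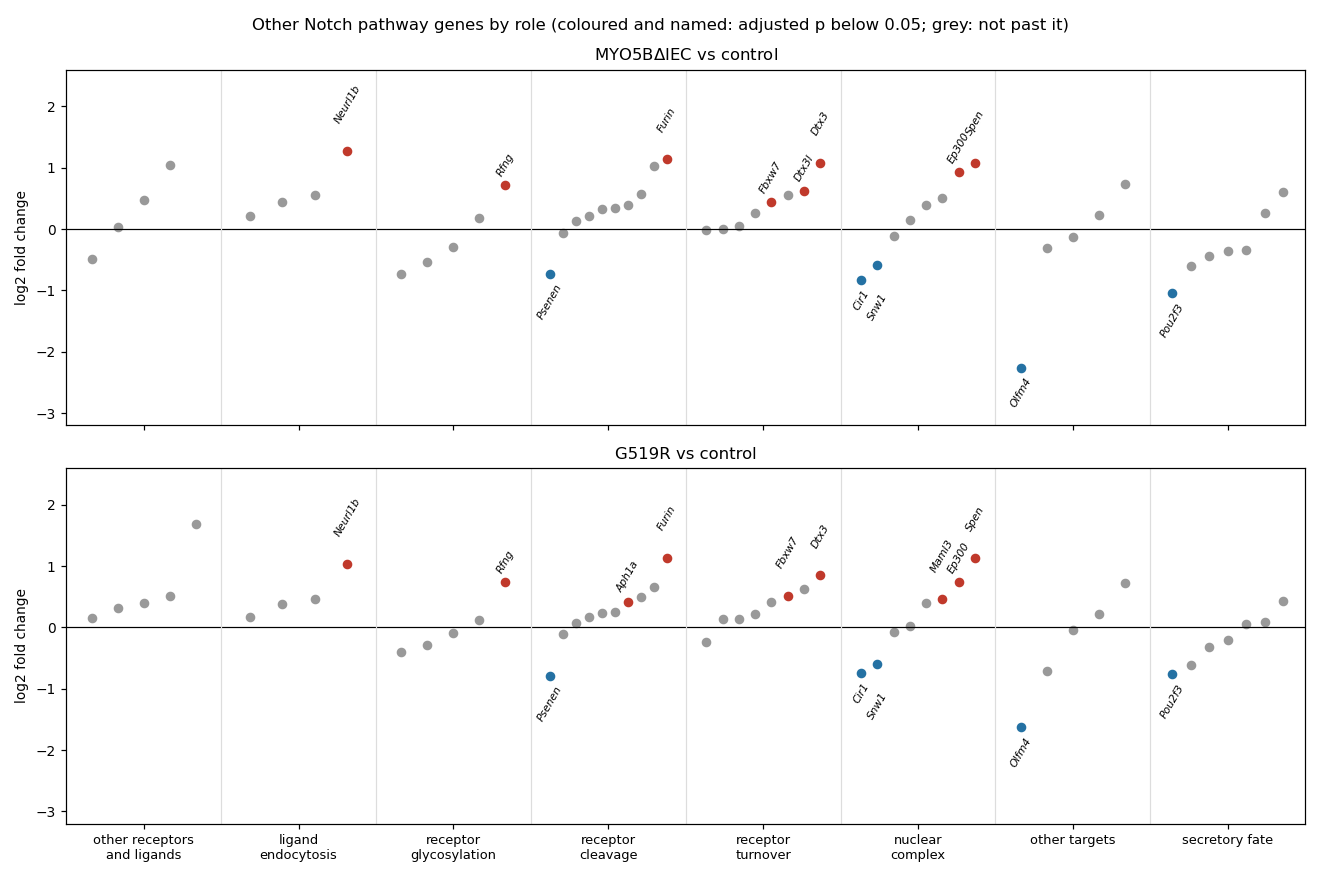
log2 fold change (edgeR) of the tested genes of 8 Notch pathway lists in MYO5BΔIEC (top) and MYO5B(G519R) enteroids (bottom) against control; each point is a gene, coloured and named where the adjusted p is below 0.05. A gene of the nuclear complex list is not shown. Red points include Furin and Neurl1b, and Olfm4 is the lowest point in both panels.

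Secretory fate genes, which Notch restrains through Hes1, did not pass the test with 1 exception. This 1 of 7 called lower (14.3%) is near the background of 13.8% and 13.7% of all tested genes. Atoh1, the factor that commits progenitors to the secretory lineage, was at 16.5, 11.4, 13.6 and 15.3 CPM in control, 12.6, 10.2, 8.99 and 10.1 CPM in MYO5BΔIEC and 12.5, 11.9, 10.7 and 10.5 CPM in MYO5B(G519R). Its log2 fold changes were -0.43 (95% confidence interval -0.82 to -0.04, edgeR adjusted p = 0.0933) and -0.32 (-0.66 to 0.02, edgeR adjusted p = 0.143), with control replicate 2 inside the range of the models. Gfi1 had -0.60 and -0.62, Spdef -0.34 and -0.21, Neurog3 0.27 and 0.08, Insm1 0.60 and 0.42, and Hes6 -0.36 and 0.05, and none of these 5 passed in either model with all libraries in edgeR. Without control replicate 1, Insm1 passed in both (0.86 and 0.71, edgeR adjusted p = 0.0177 and 0.00196) and Hes6 in MYO5BΔIEC (-0.54, edgeR adjusted p = 0.0220), and DESeq2 called Gfi1 in MYO5B(G519R) (-0.59, adjusted p = 0.0386). Pou2f3, the master factor of tuft cells, fell: it was at 5.30, 3.76, 4.36 and 5.67 CPM in control, 1.77, 1.89, 2.16 and 3.39 CPM in MYO5BΔIEC and 2.66, 2.43, 2.12 and 4.04 CPM in MYO5B(G519R). The changes in Pou2f3 were -1.04 ± 0.27 (edgeR adjusted p = 0.0166) and -0.76 ± 0.25 (edgeR adjusted p = 0.0474). The call was lost in MYO5BΔIEC without control replicate 4 or MYO5BΔIEC replicate 2 (edgeR adjusted p = 0.0557 for each), and in MYO5B(G519R) without any single control (0.0539 to 0.125) or without replicate 1, 2 or 3 of that model (0.110 to 0.123). With all libraries, Pou2f3 in MYO5B(G519R) was also lost with DESeq2 size factors (edgeR adjusted p = 0.0552), no filter (0.0725), 1 fit of all 4 groups (0.0791) and limma on log2(FPKM + 0.1) (adjusted p = 0.0525).

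Compound-1 was compared with vehicle in MYO5BΔIEC enteroids to ask whether the agonist moved these genes. None of the 9 tested members passed, in a comparison in which edgeR called 0% of 18037 genes, with 1355 at an unadjusted p under 0.05, and DESeq2 called 51 genes higher and 49 lower, no member among them. Notch3 was at 6.70, 7.83, 16.3 and 6.51 CPM with Compound-1, inside the range with vehicle. Its log2 fold change of -1.18 had a 95% confidence interval of -2.28 to -0.07 (edgeR adjusted p = 0.650). Maml2 had 4.93, 2.04, 10.3 and 4.65 CPM, most of them above the vehicle libraries, and a log2 fold change of 0.99 (0.05 to 1.94, edgeR adjusted p = 0.650). Notch1 was at 35.2, 27.6, 34.2 and 39.2 CPM (-0.35, 95% confidence interval -0.70 to 0.00), and the intervals were -0.21 to 0.43 for Notch2, -0.52 to 0.51 for Jag1, -0.68 to 0.03 for Jag2, -0.33 to 0.55 for Dll1, -0.17 to 0.83 for Dll4 and -0.42 to 0.21 for Hes1. Single libraries moved the Notch3 and Maml2 estimates: Notch3 was at -0.74 without MYO5BΔIEC replicate 2 and -1.59 without Compound-1 replicate 3, and Maml2 at 0.49 without the latter. The Notch3 share of receptor FPKM was 11.9%, 16.2%, 22.2% and 10.7% with Compound-1 (exact permutation test against vehicle, two-sided, p = 0.257).

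Compound-1-treated MYO5BΔIEC enteroids stayed above control in the members that differed without it. The count was 5 higher and 0 lower of 9, beside 15.7% and 13.7% of all tested genes, and 5 did not overlap with control, as 14.3% of tested genes did. Log2 fold changes against control were 0.72 for Notch1, 1.36 for Notch2, 3.17 for Notch3, 1.51 for Jag1 and 3.57 for Maml2 (edgeR adjusted p = 0.0127, 0.00800, 0.00398, 0.00461 and 0.00398). With the length trend removed Notch1 was at 0.41 (edgeR adjusted p = 0.0363). Hes1, at 71.7, 85.6, 66.2 and 68.4 CPM, had a log2 fold change of -0.33 (-0.68 to 0.02, edgeR adjusted p = 0.140). Library 3 of this group was the highest of its 4 in Notch2, Notch3, Jag1, Dll4 and Maml2. It was also the highest in Fn1, from the list of 8 fibroblast markers, at 12.5 CPM against 0.125 to 4.17 CPM. The list did not follow as a whole: 3 of the 8 (Col3a1, Dcn and Lum) were at 0 in this group, and all 8 summed to at most 12.9 CPM. The part of Fn1-bearing cells in these levels was not tested.

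The MYO5B models were also set against each other. Of the 9 members, 0 were called between MYO5B(G519R) and MYO5BΔIEC enteroids, where 0.00557% of all tested genes were. The estimates farthest from 0 were -0.73 (95% confidence interval -1.92 to 0.46) for Notch3 and -0.48 (-1.02 to 0.05) for Jag1, both at an edgeR adjusted p of 0.838. For Notch1 and Notch2 the intervals were -0.37 to 0.23 and -0.33 to 0.25, and for Hes1 -0.22 to 0.35, so differences larger than these between the models were outside the intervals.

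The genes whose log2 levels followed a member most closely over the 16 libraries were found among 13545 genes. For Notch1 they were Rad54l2, Bcl9 and Nectin1 (Pearson r = 0.97, 0.96 and 0.96), for Notch3 Rnf169, Ptpn14 and Sec14l5 (0.97 for each), and for Hes1 Ube2e3, Pla2g12a and Slc14a1 (0.91, 0.91 and 0.89). These points share the split between control and the other groups and the length trend of the controls, and the values are descriptions.

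**Figure D5:**
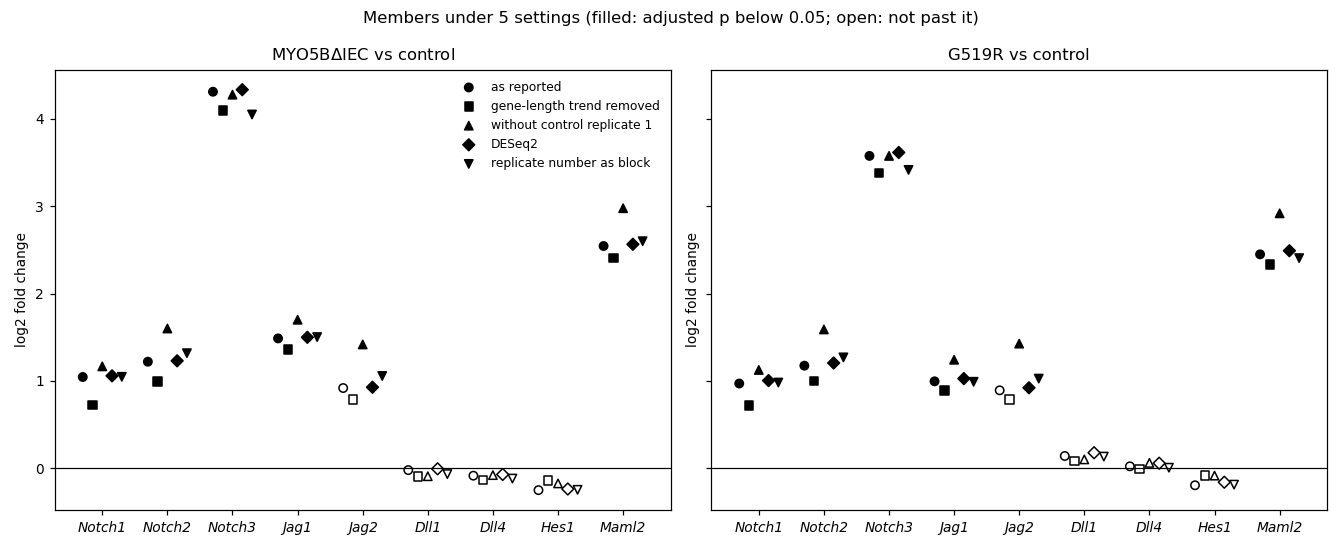
log2 fold change of the 9 tested members in MYO5BΔIEC (left) and MYO5B(G519R) enteroids (right) against control under 5 settings; filled symbols have an adjusted p below 0.05. Notch1, Notch2, Notch3, Jag1 and Maml2 are filled under each, Jag2 is open as reported and with the length trend removed and filled under the other 3, and Dll1, Dll4 and Hes1 are open throughout.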

How the data were processed

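RNA of 16 enteroid cultures was analyzed, 4 per group, with groups taken from the sample labels. The deposited values are counts, made by the authors as unnormalized reads per gene, and FPKM, which the authors computed per gene length and library. The submitters' processing notes name the build GRCm38 and the tools STAR 2.5, TopHat, HTSeq 0.6.1 and DESeq2 without their roles; gene lengths and positions are the authors' annotation. How multiply mapped reads and strand were treated is not given in the sources used here.

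Tests were run on the counts in edgeR 4.0.16 (R 4.3.3): TMM normalization, a minimum of 10 counts in 2 or more of the 8 libraries of a comparison, groups taken in pairs, the quasi-likelihood F test, and Benjamini-Hochberg adjustment over all tested genes at 0.05. Levels in CPM use TMM over the 16 libraries. Fold changes are given as log2 with SE or a 95% confidence interval. Shares of a family's FPKM were compared by exact permutation over libraries. At these depths, tested on simulated data for MYO5BΔIEC against control with 17951 genes, edgeR called 89 of 97 genes changed 4-fold, 43 of 103 changed 2-fold and 4 of 17751 left unchanged. The simulation held no length trend and far fewer changed genes than the real comparison, which called 2427 higher and 2483 lower. Its rates are therefore not those of the fit reported here. The 95% confidence intervals come from the quasi-likelihood fit and include the spread between libraries. The limit of 3 counts covers counting error only.

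The alternatives were DESeq2 1.42.0, its size factors in edgeR, mitochondrially encoded genes left out, filterByExpr or no filter, 1 fit of all 4 groups, robust empirical Bayes, the replicate number as a block, limma 3.58.1 on log2(FPKM + 1) and log2(FPKM + 0.1), a lowess trend on gene length removed from each library, and each library left out in turn; for shares, CPM in place of FPKM and a sign-flip test. The members and lists were chosen with earlier results of these data known. All 10 members are named, with, per pathway list, up to 4 genes of lowest p in MYO5BΔIEC among those past the threshold in both models, the tested genes of the target and secretory lists, and the 3 genes closest to Notch1, Notch3 and Hes1 by Pearson r of log2(CPM + 0.5); the overlapping genes, Notch4, Rbpj and the marker genes shown were named after their values were seen. A gene that this rule names in the nuclear list is counted there but not reported here by name. Promoters are from RefSeq (GRCm38.p6).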

Additional observations from a re-analysis of the deposited data

Results flagged for a closer look

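Single libraries stood apart from the other 3 of their group in 6 of the 48 sets of 4 values examined by Dixon's test at the 95% level, where chance flags about 1 in 20 sets. MYO5B(G519R) replicate 3 was the highest of its group in Notch2, at 39.5 CPM, and in Jag1, at 51.4 CPM. Compound-1 replicate 3 was the highest in Notch3, at 16.3 CPM. Control replicate 1 was the highest control in Jag2, at 54.2 CPM, and edgeR called Jag2 when that library was left out. Control replicate 4 was the lowest control in Dll4, at 10.2 CPM, in a group whose other values were 10.9 to 11.0 CPM. MYO5BΔIEC replicate 3 was the lowest in Hey1, at 0 CPM, where the other 3 libraries had 3 counts each.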

How the results depend on the processing

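Under each of the 11 other settings, the 5 members called against control in MYO5BΔIEC, MYO5B(G519R) and Compound-1-treated enteroids were still called, with sizes that limma on log2(FPKM + 1) brought down to 1.51 for Notch3 and 0.39 for Maml2 in MYO5BΔIEC, and 0 were called in the other 2 comparisons. In both models Jag2 was added by DESeq2, by no filter and by 1 fit of all groups, and in MYO5BΔIEC also by limma. Leaving out 1 library gave 5 to 6 members both in MYO5BΔIEC and with Compound-1, and 4 to 6 in MYO5B(G519R). In the comparisons with control and of Compound-1 with vehicle, same-numbered libraries did not deviate together (correlations from -0.18 to 0.12). Between MYO5B(G519R) and MYO5BΔIEC the correlations were 0.077, 0.021, 0.24 and 0.35 for replicates 1 to 4. There replicates 1, 3 and 4 each matched their own number best, so a pairing of these libraries cannot be left aside. With the replicate number as a block, 6 members were called in MYO5BΔIEC and 6 in MYO5B(G519R) against control, Jag2 being added. Other pathway genes called were 12 and 13 in place of 14 and 15, and 0 members were called between the models.

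Other pathway genes called numbered 10 to 25 in MYO5BΔIEC and 9 to 26 in MYO5B(G519R) with 1 library left out, the highest without control replicate 1, where calls over all genes rose from 2427 higher and 2483 lower to 3767 and 3707 in MYO5BΔIEC and from 2341 and 2437 to 4244 and 3902 in MYO5B(G519R); the cause was not tested. With 1 library left out, the Notch3 share was higher than control by 18.3 to 27.5 percentage points in MYO5BΔIEC and by 10.9 to 16.7 in MYO5B(G519R). Without any 1 library its exact permutation p was 0.0571, the smallest that 3 against 4 allows, and in the sign-flip test that pairs replicate numbers (differences 22.2 and 14.3) it was 0.125, the smallest that 4 pairs allow. The Delta-like share differed by -27.0 to -18.1 points in MYO5BΔIEC.

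Sign changes concerned log2 fold changes near 0 that were never past the threshold. With 1 library left out the ranges were, against control, -0.23 to 0.093 for Dll1 and -0.23 to 0.034 for Dll4 in MYO5BΔIEC and -0.048 to 0.14 for Dll4 in MYO5B(G519R); for Compound-1 against vehicle, -0.22 to 0.12 for Jag1 and -0.0040 to 0.31 for Dll1; and for MYO5B(G519R) against MYO5BΔIEC, -0.13 to 0.053 for Notch1, -0.14 to 0.022 for Notch2, -0.12 to 0.13 for Jag2, -0.0094 to 0.14 for Hes1 and -0.39 to 0.15 for Maml2. With the length trend removed, Dll4 in MYO5B(G519R) was -0.010 and Notch2 between the models 0.0037. Jag1 under Compound-1 was 0.00097 with DESeq2, 0.028 in 1 fit of all groups, and 0.012 and 0.014 with limma at FPKM + 1 and + 0.1. Depth limited Hey1 and the low Hes and Hey genes.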
